A study of Mus musculus with 6 samples.

Results

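The genes described here encode the extracellular and membrane side of WNT signalling: the Wnt ligands, the proteins that secrete them, their Frizzled (Fzd) and Lrp receptors, the R-spondins (Rspo), and the secreted antagonists. They were the rows of the count table whose symbol begins with Wnt, Fzd, Sfrp, Dkk or Rspo followed by a digit, with Lrp5, Lrp6, Wif1, Porcn and Wls. The rule found 48 of 52323 rows, and used no measured value. They were 19 Wnt ligands, 12 receptors and coreceptors (10 Fzd, Lrp5 and Lrp6), 4 R-spondins, 9 antagonists (4 Sfrp, 4 Dkk and Wif1), the secretion factors Porcn and Wls, and 2 transcripts read from the opposite strand of Fzd10 and Rspo4 (Fzd10os and Rspo4os).

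RNA was sequenced from damaged hepatocytes (dHeps), which are liver cells isolated from mice injured with carbon tetrachloride (CCl4), after 16 days in culture. All 3 groups had 2 libraries each and shared this injury and a serum-free hepatocyte medium. The DMSO group received solvent. The 3C group received ETC-1002 (5 µM), GSK429286A (2 µM) and CID755673 (50 µM), the last of which inhibits protein kinase D. The 5C group received these compounds at the same doses with salidroside (5 µM) and with forskolin (2 µM), which activates adenylate cyclase. In the study, hepatocytes were traced by a Cre recombinase driven by the liver-specific TBG promoter, which switches on tdTomato in Rosa-LSL-tdTomato mice. The study's methods describe mice of both sexes that were young adults before the injury, and say that n stands for separate biological replicates. The labels did not tie the 2 libraries of a group to animals or cultures, so the p-values below measure the spread between libraries.

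WNT ligands are lipid-modified by Porcn, an acyltransferase of the endoplasmic reticulum, and carried to the cell surface by Wls. Outside the cell they bind a Frizzled receptor. With the coreceptors Lrp5 or Lrp6, binding stabilises beta-catenin, which then acts with TCF/LEF factors on target genes, while other ligands signal without beta-catenin through planar polarity and calcium pathways. R-spondins act through the Lgr receptors to keep Frizzled at the surface, and Sfrp, Dkk and Wif1 proteins interfere with the ligand or with Lrp5 and Lrp6. In the liver, WNT signals from around the central vein maintain the pericentral programme of hepatocytes.

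Total estimated counts were 65916573 to 69245895 per library, and the 48 rows together took 0.102% to 0.143% of them. Counts scaled to a library total of 1000000 (CPM) compare libraries, and FPKM, which is also scaled to gene length, compares genes. A gene passed the test at a Benjamini-Hochberg adjusted p under 0.05 over all 19135 genes tested with the quasi-likelihood test of edgeR, and fold changes are given as log2 values with their standard error (SE). The libraries did not hold hepatocyte RNA alone. Alb, the hepatocyte secretory marker, stood at 1182 and 1357 CPM in DMSO, beside 6024 and 6137 CPM of Lyz2, a lysozyme of macrophages. The collagen gene Col1a1 stood at 2921 and 3482 CPM in the same libraries. The study reported higher Col1a1 and other mesenchymal genes in hepatocytes of injured mice, and an isolation enriched for tdTomato-positive cells. Such genes therefore do not separate damaged hepatocytes from stellate cells or fibroblasts here. In such bulk samples, fewer cells of a type and less RNA per cell cannot be told apart.

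Marker lists of 6 liver cell types moved between the groups. The 7 hepatocyte markers found in the table summed to 1854 to 2245 CPM in DMSO, 10321 to 10732 in 3C and 9553 to 14131 in 5C, and 7 of 7 rose in both cocktails. The 10 macrophage markers summed to 8497 to 8862 CPM in DMSO, 2766 to 2776 in 3C and 1818 to 1819 in 5C, and 8 of 10 fell in both cocktails. Those of liver endothelium summed to 525 to 533 CPM in DMSO, 165 to 188 in 3C and 183 to 264 in 5C. Most of the DMSO sum was Lyve1 (309 and 319 CPM) and Fcgr2b (196 and 194), which fell in both cocktails. Of the 9 endothelial markers tested, 4 rose and 2 fell in 5C over DMSO, and 2 rose and 2 fell in 3C. Pecam1 and Cdh5 rose in both cocktails, and Kdr and Tek in 5C alone. The 12 stellate cell and fibroblast markers summed to 5705 to 6604 CPM in DMSO, 4932 to 4962 in 3C and 7457 to 8016 in 5C. The 7 mesothelial markers, which mark the cells that line the liver surface, summed to 974 to 1187 CPM in DMSO, 1266 to 1407 in 3C and 2313 to 2416 in 5C. All 7 passed the test as higher in 5C than in DMSO, and 5 of 7 in 5C than in 3C. Over all genes tested, 15.6% passed as higher and 13.1% as lower in 5C against DMSO, and 12.7% and 11.8% in 3C against DMSO. In 5C against 3C, 7.33% of all genes passed as higher. Cholangiocyte markers summed to 2903 to 3386, 3522 to 3710 and 2391 to 2688 CPM. Within the stellate list the genes differed: Lrat, Pdgfra, Pdgfrb, Dcn and Lum rose and Des and Acta2 fell in both cocktails, while Rgs5 rose and Col1a1 and Col3a1 fell in 3C alone. The T and B cell markers Cd3e and Cd3g were at 0 in every library, and none of that list had more than 10 counts. The part of these cell types in the results below was not tested.

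**Figure D1:**
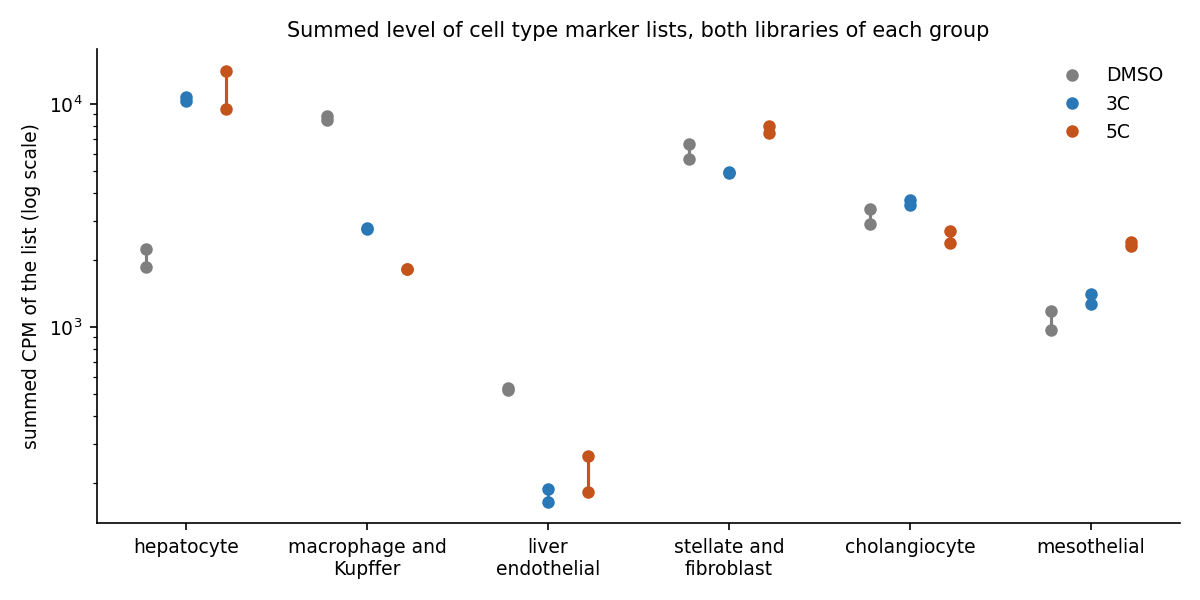
Summed CPM of 6 lists of cell type markers on a log axis, with a point for each of the 2 libraries of the DMSO, 3C and 5C groups and a line between them. Hepatocyte markers lie at 1854 to 2245 CPM in DMSO and above 9553 in both cocktails, macrophage markers fall from above 8497 to 1818 to 1819 in 5C, and mesothelial markers reach 2313 to 2416 in 5C.

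Of the 48 rows, 35 had enough counts to be tested. The 13 rows that were not tested had at most 15 counts in any library. They were Wnt1, Wnt3, Wnt3a, Wnt8a, Wnt8b, Wnt9b, Rspo4, Dkk1, Dkk4, Sfrp5, Wif1 and the 2 opposite-strand transcripts. Among them Wnt3a, Wnt8b, Rspo4 and Dkk4 had no count in any library, and 12 of the 13 never exceeded the floor of 12 units, which stands for 3 fragments if a fragment counted as 4 units. Both central-vein ligands known from the liver differed in this respect: Wnt9b was at or under the floor everywhere, and Wnt2 was measurable in all 6 libraries. Another 9 members were tested at a mean below 1 CPM, and 26 at or above it.

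In 5C against DMSO, 16 members rose and 2 fell, so that 45.7% of the 35 tested members were higher and 5.71% lower. Over all genes tested, 15.6% passed as higher and 13.1% as lower. The members' median log2 fold change was 0.37. In 3C against DMSO, 9 members rose (25.7%) and 4 fell (11.4%), where 12.7% of all genes tested were higher and 11.8% lower. The median log2 fold change of the members was 0.03. In 5C against 3C, 12 members rose (34.3%) and 2 fell (5.71%), beside 7.33% higher and 5.33% lower over all genes, with a members' median of 0.33. The first 2 comparisons share their DMSO libraries and are not independent. At least 2-fold changes that also passed the test were made by 8 members in 5C against DMSO, 8 in 3C against DMSO and 4 in 5C against 3C, where the shares over all genes tested were 11.7%, 9.45% and 3.01%. The median of all genes lay within 0.01 of 0 on the log2 scale in each comparison. Among the 14393 genes that averaged 1 CPM or more, 35.7%, 31% and 16.4% passed in these 3 comparisons in the same order, and among the 26 members at this level 57.7%, 46.2% and 53.8%. The summed levels of the mesothelial and stellate marker lists were highest in the 5C libraries too, and their part in these counts was not tested.

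**Figure D2:**
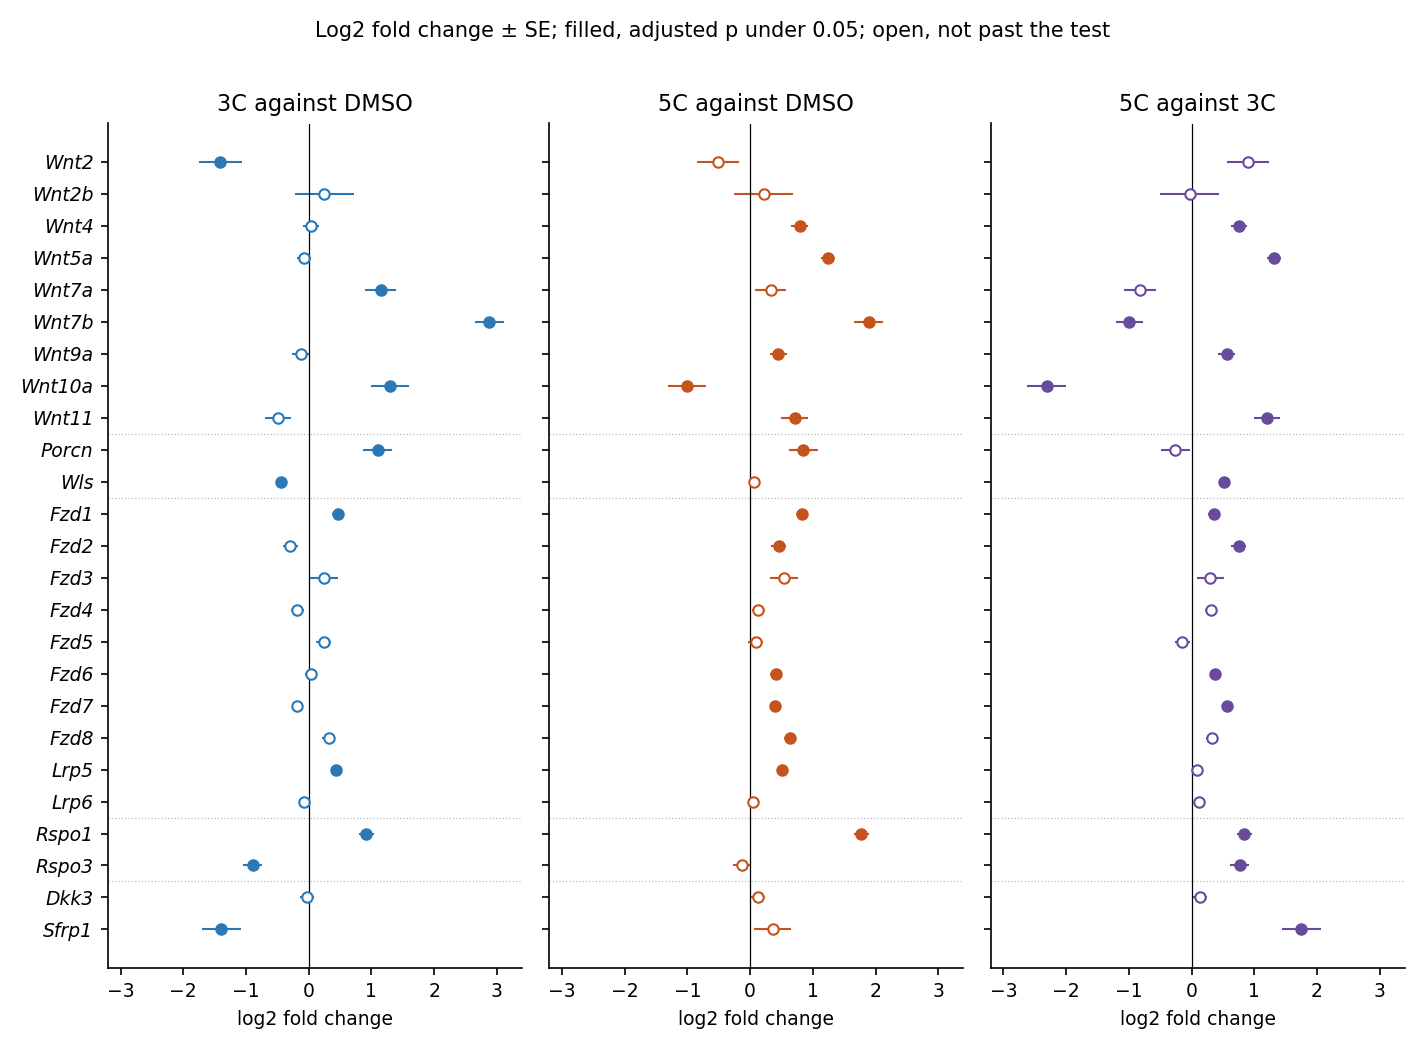
Log2 fold change with its SE as a horizontal bar for 25 members that averaged 1 CPM or more, with 1 panel for each comparison between the 3 groups. Filled points passed the test and open points did not. Sfrp2 is left out because its DMSO libraries were at or under the floor. Wnt10a lies at 1.30 in 3C and at -1.01 in 5C, and Rspo1 at 0.92 and 1.77.

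The summed FPKM of the 19 Wnt ligands was 32.5 and 24.1 in the DMSO libraries, 27 and 30 in 3C, and 46.4 and 40.6 in 5C. The 5C libraries were above the other 4, and DMSO and 3C overlapped. In every group 4 ligands made up most of this sum: on average Wnt4 held 25.5% of it in DMSO, 26.3% in 3C and 28.3% in 5C, and Wnt11 28.6%, 18% and 24.7%. Wnt5a held 14.5%, 13.4% and 22.8%, and Wnt9a 14.4%, 13.1% and 12.4%. The shares of Wnt7a, Wnt7b and Wnt10a, which came to 3.78%, 1.14% and 3.2% in DMSO, were 8.14%, 8.49% and 7.54% in 3C, and 2.93%, 2.96% and 0.972% in 5C. By these shares Wnt4 and Wnt5a were highest in 5C, Wnt11 and Wnt9a in DMSO, and Wnt7a, Wnt7b and Wnt10a in 3C.

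In CPM, the ligands above 1 CPM that were highest in 5C and passed the test there were Wnt5a, Wnt4, Wnt11 and Wnt9a. Wnt5a, a ligand best known for signalling without beta-catenin (GRCm39 chromosome 14, 28226495 to 28249405, plus strand), stood at 32 and 26.1 CPM in DMSO, 28.9 and 27.6 in 3C, and 70.7 and 64.5 in 5C. The 2 libraries of 5C were above all others, and those of 3C lay between the DMSO libraries. Its log2 level rose in 5C by 1.24 (SE 0.11, adjusted p = 3.17e-05) over DMSO and 1.31 (SE 0.11, adjusted p = 0.000258) over 3C, and 3C against DMSO gave -0.07 (SE 0.11, adjusted p = 0.704). Both increases kept their call whichever library was left out.

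Wnt4, a ligand of kidney and gonad development that can act with or without beta-catenin, was the member of its family with the highest mean FPKM (9). It measured 38.6 and 28.2 CPM in DMSO, 36.6 and 33.4 in 3C, and 59.8 and 54.4 in 5C. It rose by 0.79 (SE 0.13, adjusted p = 0.00209) over DMSO and 0.76 (SE 0.13, adjusted p = 0.00694) over 3C, and did not pass in 3C against DMSO (0.04, SE 0.13, adjusted p = 0.891). The pattern was that of Wnt5a, with a smaller change. Wnt9a, for which roles in joints and blood stem cells are known, measured 15.6 and 13.8 CPM in DMSO, 12.6 and 15.1 in 3C, and 18.9 and 20.6 in 5C. It rose in 5C by 0.45 (SE 0.14, adjusted p = 0.0365) over DMSO and 0.56 (SE 0.14, adjusted p = 0.0271) over 3C. The 3C libraries overlapped those of DMSO (-0.12, SE 0.14, adjusted p = 0.624).

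Wnt11, which acts without beta-catenin in cell movements of the embryo (chromosome 7, 98484319 to 98504402, plus strand), measured 12.9 and 8.4 CPM in DMSO, 7.34 and 8.18 in 3C, and 19.5 and 14.9 in 5C. Both 3C libraries were below both of DMSO, though the lower DMSO library was close to them, and both of 5C were above. Wnt11 rose in 5C by 0.71 (SE 0.21, adjusted p = 0.032) over DMSO and by 1.20 (SE 0.21, adjusted p = 0.00665) over 3C. In FPKM, however, the 5C libraries (11.7 and 9.81) overlapped those of DMSO (10.4 and 6.06). Limma on log2(FPKM + 1) gave 5C against DMSO an adjusted p of 0.255. In 3C against DMSO the log2 fold change was -0.49 (SE 0.21, adjusted p = 0.139), which did not pass. Of the 10 members described in full with a change of at least 2-fold, 5 have a window in the RefSeq promoter table (Rspo1, Sfrp2, Wnt11, Wnt2 and Wnt7a), and Wnt11 alone had matches there to the motifs searched. These were CTTTGA, the core bound by TCF/LEF, and TGACG, the half-site bound by factors that respond to cyclic AMP, each on both strands. The 2 windows of Wnt11 and that of Sfrp2, an antagonist described below, are shown from 5′ to 3′ on the plus strand of GRCm39, with any match in capitals. Each window is 250 bases before a RefSeq start, and bases within annotated exons are left out.

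Wnt11, first start, chr7:98484069-98484318: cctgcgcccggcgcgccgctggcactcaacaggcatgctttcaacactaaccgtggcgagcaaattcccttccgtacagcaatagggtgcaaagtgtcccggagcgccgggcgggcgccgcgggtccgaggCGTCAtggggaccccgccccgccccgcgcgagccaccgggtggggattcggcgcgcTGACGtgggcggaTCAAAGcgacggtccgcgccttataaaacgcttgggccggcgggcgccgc

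Wnt11, second start, chr7:98487802-98488051: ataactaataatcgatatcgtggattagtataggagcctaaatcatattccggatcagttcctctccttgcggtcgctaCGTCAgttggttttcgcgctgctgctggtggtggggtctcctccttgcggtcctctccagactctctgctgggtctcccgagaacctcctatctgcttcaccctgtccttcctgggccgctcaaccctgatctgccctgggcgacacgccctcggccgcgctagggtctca

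Sfrp2, chr3:83673378-83673480: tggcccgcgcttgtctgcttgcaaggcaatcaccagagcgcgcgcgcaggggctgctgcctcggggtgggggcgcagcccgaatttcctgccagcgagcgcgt

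The first window of Wnt11 holds 1 match to the TCF/LEF motif and 2 to the cyclic AMP half-site, and the second 1 match to the half-site. The half-site occurs in 17.8% of all 32851 windows of the table and in those of 4 of 29 members with a window (Rspo4, Sfrp5, Wnt10b and Wnt11). The TCF/LEF motif occurs in 13.8% of all windows and in those of 4 of the 29 members (Dkk1, Fzd1, Wnt11 and Wnt5b). The percentages are per window, while a member counts once with a match in any of its windows, so these measures differ. A match is a run of letters and does not show that a factor binds there.

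Wnt7b, Wnt7a and Wnt10a were the ligands that passed as higher in 3C than in DMSO. Wnt7b, a ligand of epithelia that signals through beta-catenin in lung and kidney (chromosome 15, 85419638 to 85466674, minus strand), measured 1.15 and 1.14 CPM in DMSO, 7.58 and 9.59 in 3C, and 4.3 and 4.07 in 5C. The groups did not overlap. It rose by 2.88 (SE 0.23, adjusted p = 3.19e-05) in 3C and by 1.89 (SE 0.23, adjusted p = 0.000258) in 5C over DMSO, and was lower in 5C than in 3C (-0.99, SE 0.21, adjusted p = 0.017). Its relative Wnt7a, known from limb and nerve development, measured 3.41 and 3.87 CPM in DMSO, 6.93 and 9.59 in 3C, and 5.34 and 3.68 in 5C. Wnt7a rose in 3C by 1.15 (SE 0.25, adjusted p = 0.00967). The 5C libraries overlapped those of DMSO (0.33, SE 0.25, adjusted p = 0.398), and 5C against 3C missed the threshold (-0.82, SE 0.25, adjusted p = 0.0678), though not by DESeq2 (0.0274).

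Wnt10a, a ligand of tooth and skin appendages (chromosome 1, 74830675 to 74844355, plus strand), changed in opposite directions in the cocktails. It measured 1.94 and 2.81 CPM in DMSO, 4.92 and 7.01 in 3C, and 1.19 and 1.14 in 5C, without overlap between groups. The level rose in 3C by 1.30 (SE 0.30, adjusted p = 0.0116) and was lower in 5C than in DMSO (-1.01, SE 0.30, adjusted p = 0.0358). The difference of 5C from 3C was -2.31 (SE 0.31, adjusted p = 0.00205), the largest decrease of a member at or above 1 CPM in any of the comparisons.

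Wnt2, which endothelial cells of the liver lobule are known to produce, fell in 3C. It measured 3.47 and 4.52 CPM in DMSO, 1.09 and 1.99 in 3C, and 2.95 and 2.6 in 5C. The change was -1.41 (SE 0.34, adjusted p = 0.0152) in 3C against DMSO, while 5C against DMSO (-0.51, SE 0.33, adjusted p = 0.308) and 5C against 3C (0.90, SE 0.34, adjusted p = 0.134) did not pass. The summed endothelial list was lower in both cocktails than in DMSO, but its members differed. Lyve1 and Fcgr2b fell in both, Pecam1 and Cdh5 rose in both, and Kdr and Tek rose in 5C alone. Their part in the level of Wnt2 was not tested. Wnt2b, at 0.895 to 2.25 CPM, overlapped between groups and passed in no comparison.

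The ligands tested at a mean below 1 CPM were Wnt5b, Wnt6, Wnt10b and Wnt16. Wnt5b, a relative of Wnt5a, had 8 and 17 counts in DMSO, 15 and 38 in 3C, and 91 and 62 in 5C. It rose in 5C over DMSO (2.56, SE 0.70, adjusted p = 0.0233), a call lost without DMSO replicate 1 (0.0983), 5C replicate 1 (0.132) or 5C replicate 2 (0.052). Of its exonic bases, 21.8% overlap Fbxl14 on the opposite strand, and whether strand was used in counting is not given in the sources used here. The other 3 had at most 46 counts in a library and passed in no comparison.

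**Figure D3:**
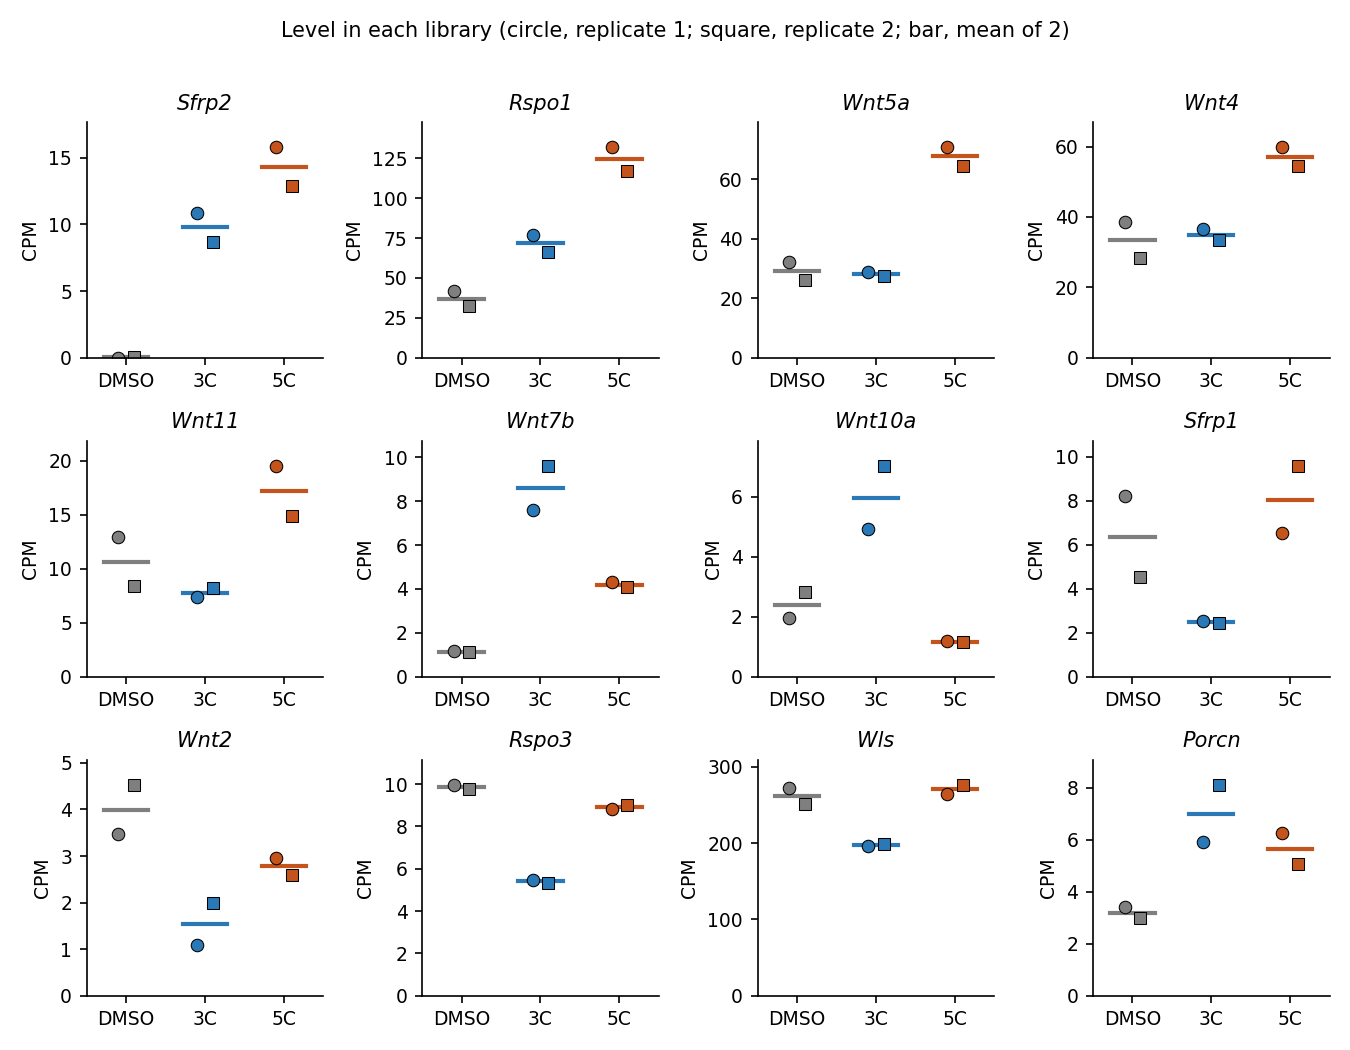
CPM of 12 members in each library of DMSO, 3C and 5C, on linear axes that start at 0; circles are replicate 1, squares replicate 2, and bars the mean of 2. Sfrp2 is near 0 in DMSO and at 8.72 to 15.8 in the cocktails, Wnt5a, Wnt4 and Rspo1 are highest in 5C, Wnt7b and Wnt10a in 3C, and Wls, Rspo3, Sfrp1 and Wnt2 are lowest in 3C.

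Among the secretion factors, Wls was expressed well above Porcn, with a mean FPKM of 72 against 2.54. Wls measured 272 and 251 CPM in DMSO, 196 and 199 in 3C, and 265 and 276 in 5C. It fell in 3C by 0.44 on the log2 scale (SE 0.07, adjusted p = 0.00169) and was higher in 5C than in 3C by 0.51 (SE 0.07, adjusted p = 0.00232), with the 5C libraries around those of DMSO (0.07, SE 0.07, adjusted p = 0.525). Porcn measured 3.39 and 2.97 CPM in DMSO, 5.89 and 8.09 in 3C, and 6.24 and 5.07 in 5C. It rose in 3C (1.10, SE 0.23, adjusted p = 0.00753) and in 5C (0.85, SE 0.23, adjusted p = 0.0236), and the cocktails overlapped (-0.26, SE 0.23, adjusted p = 0.575). In 3C, the enzyme that modifies the ligands and the protein that carries them thus moved in opposite directions.

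All 12 receptor rows were tested. In 5C against DMSO 6 rose and none fell, in 3C against DMSO 2 rose and none fell, and in 5C against 3C 4 rose and none fell. As shares of the 12 these increases were 50%, 16.7% and 33.3%, where 15.6%, 12.7% and 7.33% of all genes tested passed as higher, so the 2 of 3C against DMSO were near the share over all genes. Without 5C replicate 1 the increases in 5C against DMSO numbered 3, and in 5C against 3C the fewest were 1, without 3C replicate 1. None changed by 2-fold with a pass. At an unadjusted p under 0.05, edgeR placed 0, 1 (Fzd2) and 0 receptors lower in these comparisons, and DESeq2 called 0 lower in each. Summed FPKM of the 10 Fzd rows was 63.9 and 52.9 in DMSO, 63.1 and 64.8 in 3C, and 82.5 and 80 in 5C. Fzd1 held the largest share, 31.3% in DMSO, 39.8% in 3C and 39% in 5C, followed by Fzd7 with 19.1%, 15.4% and 17.5%.

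Fzd1 and Lrp5 were the receptors that rose in both cocktails. Fzd1, a receptor that transmits beta-catenin signals, measured 91.7 and 76.7 CPM in DMSO, 120 and 118 in 3C, and 139 and 155 in 5C. The groups stood in this order without overlap: 3C was above DMSO by 0.47 (SE 0.09, adjusted p = 0.00557), and 5C above DMSO by 0.83 (SE 0.09, adjusted p = 0.00018) and above 3C by 0.36 (SE 0.09, adjusted p = 0.0377). Lrp5 measured 102 and 106 CPM in DMSO, 142 and 146 in 3C, and 144 and 149 in 5C. It rose by 0.43 (SE 0.07, adjusted p = 0.00157) in 3C and 0.51 (SE 0.07, adjusted p = 0.000477) in 5C, and the cocktails overlapped. Its partner Lrp6 measured 163 and 140 CPM in DMSO and 145 to 157 in the cocktails, and passed in no comparison.

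Fzd2, Fzd6 and Fzd7 were higher in 5C than in both other groups. Fzd7, a receptor of stem cells in several epithelia, measured 59.5 and 51.5 CPM in DMSO, 49.6 and 50 in 3C, and 74.1 and 69 in 5C. It rose by 0.39 (SE 0.08, adjusted p = 0.00741) over DMSO and 0.57 (SE 0.08, adjusted p = 0.0028) over 3C. Fzd2, for which Wnt5a is a known ligand, measured 29 and 24.4 CPM in DMSO, 21.7 and 23.1 in 3C, and 40 and 32.7 in 5C. Its increase was 0.46 (SE 0.12, adjusted p = 0.0209) over DMSO and 0.75 (SE 0.12, adjusted p = 0.00496) over 3C. Both 3C libraries of Fzd2 and of Fzd7 were below the DMSO libraries, but the differences did not pass (-0.29, SE 0.12, adjusted p = 0.137, and -0.19, SE 0.08, adjusted p = 0.145).

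Fzd6, which acts in planar polarity of skin and hair, measured 24.3 and 23.3 CPM in DMSO, 24.7 and 24.9 in 3C, and 32.7 and 29.6 in 5C. It rose by 0.41 (SE 0.09, adjusted p = 0.0112) over DMSO and 0.38 (SE 0.09, adjusted p = 0.0319) over 3C. Fzd8 measured 20.4 and 22.3 CPM in DMSO, 26.3 and 28.1 in 3C, and 32.7 and 33.3 in 5C. The groups did not overlap, and only 5C against DMSO passed (0.64, SE 0.10, adjusted p = 0.00128), with 0.32 (SE 0.10, adjusted p = 0.05) in 3C against DMSO at the threshold. DESeq2 called Fzd8 in 3C against DMSO and in 5C against 3C as well (adjusted p = 0.0292 and 0.0287). The remaining receptors Fzd3, Fzd4, Fzd5, Fzd9 and Fzd10 passed in no comparison. Fzd4, the receptor of norrin and of several ligands, was the most abundant of them at 54 to 69.4 CPM. Annotated exons on the opposite strand overlap 12% of the exonic bases of Fzd7, 13.3% of Fzd6 and 18.1% of Fzd5.

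**Figure D4:**
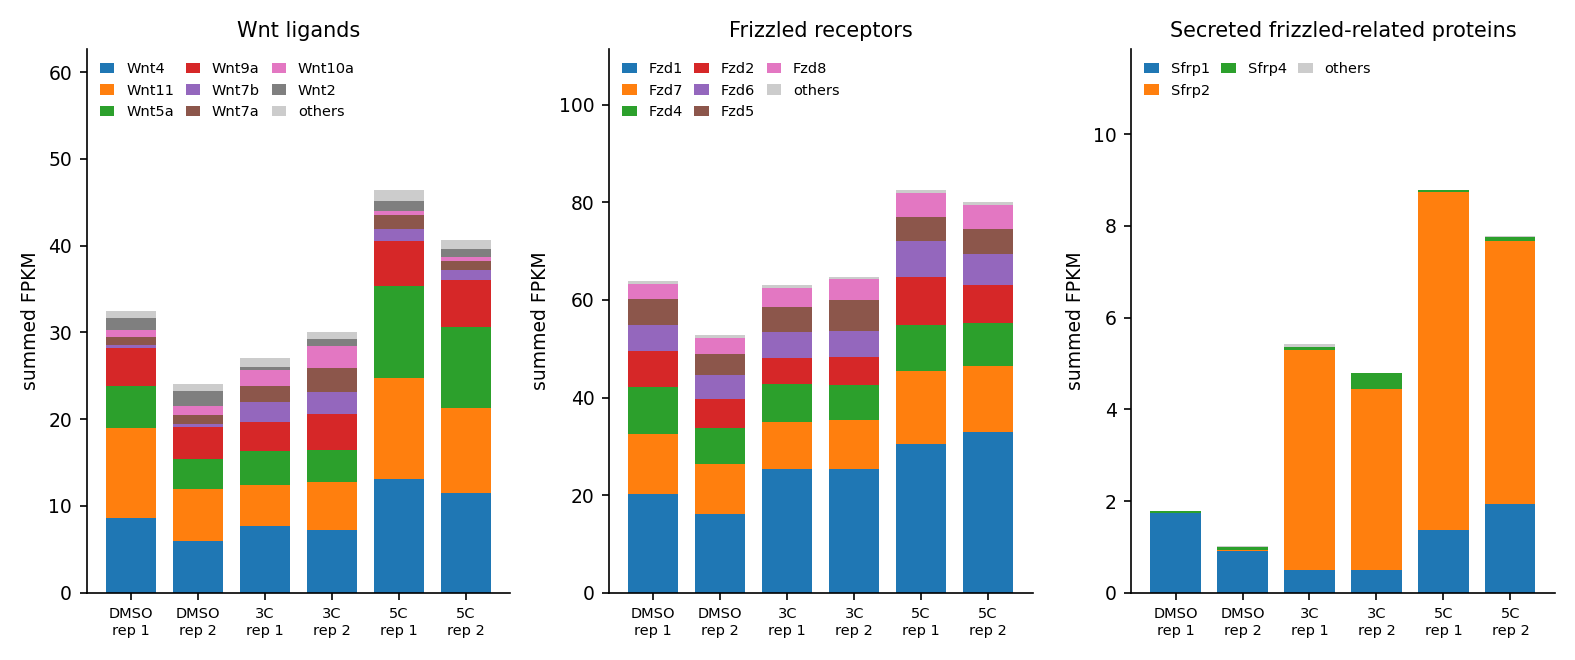
Summed FPKM in each library of the Wnt ligands, the Frizzled receptors and the Sfrp antagonists, stacked by gene, on axes that start at 0. The ligand sum is 46.4 and 40.6 in 5C against 24.1 to 32.5 in the other 4 libraries, Fzd1 is the largest part of the receptors throughout, and the Sfrp sum is mostly Sfrp1 in DMSO and mostly Sfrp2 in 3C and 5C.

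Rspo1 was the R-spondin with the highest level and rose in both cocktails. R-spondin 1 is an enhancer of WNT signals in gut and gonad. The gene (chromosome 4, 124879876 to 124902892, plus strand) measured 41.8 and 32.2 CPM in DMSO, 76.7 and 66.6 in 3C, and 132 and 117 in 5C, and the 3 groups stood apart. The increase was 0.92 (SE 0.12, adjusted p = 0.000705) in 3C, 1.77 (SE 0.12, adjusted p = 1.41e-05) in 5C over DMSO, and 0.84 (SE 0.12, adjusted p = 0.00304) in 5C over 3C. These calls held whichever library was left out. In FPKM, Rspo1 reached 66.5 and 57 in 5C, above the sum of all Wnt ligands in the same libraries.

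Rspo3, the R-spondin known for its role at the central vein, fell in 3C. It measured 9.95 and 9.75 CPM in DMSO, 5.48 and 5.35 in 3C, and 8.83 and 9 in 5C. The change was -0.89 (SE 0.15, adjusted p = 0.00264) in 3C against DMSO and 0.77 (SE 0.15, adjusted p = 0.0118) in 5C against 3C, and 5C against DMSO gave -0.13 (SE 0.15, adjusted p = 0.61). Rspo2 had no counts in DMSO, 33 and 24 counts in 3C, and 30 and 51 in 5C. It passed the test in both cocktails over DMSO (adjusted p = 0.00521 and 0.00312), and against the floor of 12 units per library its level was at least 2.36-fold higher in 3C and at least 3.25-fold higher in 5C. Rspo1 made up 86.1% of the R-spondin FPKM in DMSO, 95.4% in 3C and 95.7% in 5C, and Rspo3 13.9%, 4.26% and 4.06%. The summed mesothelial and stellate lists were also highest in the 5C libraries, though not each stellate gene was: Acta2 and Des, for example, were highest in DMSO, and Lrat and Rgs5 in 3C. Their part in the level of Rspo1 was not tested.

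Of the antagonists, Sfrp2 showed the largest change. Secreted frizzled-related protein 2 binds WNT ligands and is made by fibroblasts in many tissues. Sfrp2 (chromosome 3, 83673481 to 83681623, plus strand) had 0 and 4 counts in DMSO, 719 and 595 in 3C, and 1091 and 896 in 5C, or 10.9 and 8.72 CPM in 3C and 15.8 and 12.9 in 5C. The DMSO libraries were thus both below the floor, and all 4 cocktail libraries far above it. Against the floor its level was at least 54.3-fold higher in 3C (adjusted p = 7.91e-06) and at least 79.7-fold higher in 5C (adjusted p = 3.27e-06). Both 5C libraries were above those of 3C, but the difference of 0.60 (SE 0.28, adjusted p = 0.225) did not pass, while DESeq2 gave it an adjusted p of 0.0465. Of its exonic bases, 21% overlap the gene Gm26771 on the opposite strand. Of the 12 stellate and fibroblast markers, 5 rose and 2 fell in 5C over DMSO, and 6 rose and 4 fell in 3C. Over all genes tested, 15.6% rose and 13.1% fell in 5C, and 12.7% rose and 11.8% fell in 3C. The marker list summed to 5705 to 6604 CPM in DMSO, 4932 to 4962 in 3C and 7457 to 8016 in 5C. The part of these cells in the level of Sfrp2 was not tested.

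Sfrp1, a relative of Sfrp2 that also binds WNT ligands, fell in 3C. It measured 8.22 and 4.52 CPM in DMSO, 2.51 and 2.45 in 3C, and 6.54 and 9.57 in 5C, so that DMSO and 5C overlapped and 3C lay below both. The change was -1.39 (SE 0.31, adjusted p = 0.0101) in 3C against DMSO and 1.75 (SE 0.31, adjusted p = 0.00681) in 5C against 3C, with 0.36 (SE 0.30, adjusted p = 0.427) in 5C against DMSO. Summed FPKM of the 4 Sfrp rows was 1.77 and 1.01 in DMSO, 5.42 and 4.8 in 3C, and 8.78 and 7.78 in 5C. Sfrp1 made up 94.9% of it in DMSO, 9.91% in 3C and 20.3% in 5C, and Sfrp2 1.26%, 85.3% and 78.9%. Sfrp4 had 7 to 60 counts and passed in no comparison.

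Dkk3, a member of the Dickkopf family that unlike Dkk1 is not known as an inhibitor through Lrp6, was the antagonist row with the highest mean FPKM (23.1). It measured 82.8 and 84.9 CPM in DMSO, 86.1 and 83.4 in 3C, and 79.4 and 101 in 5C, with overlap between all groups and no pass. It made up 98.5% to 99.8% of the Dkk FPKM on average in each group. Dkk2 had 97 and 85 counts in DMSO, 53 and 29 in 3C, and 8 and 20 in 5C. It fell in 5C against DMSO (-2.72, SE 0.61, adjusted p = 0.00938), and missed the threshold without 5C replicate 1 (-2.20, adjusted p = 0.0576). The inhibitors Dkk1, Dkk4 and Wif1 had at most 5 counts in any library.

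Several of these calls were lost when 1 library was left out. The group of that library then kept 1 library, which is assumed to vary like the others, and the fit had fewer residual degrees of freedom. A loss therefore does not show that a call rested on 1 library. Wnt10a in 5C against DMSO stayed at -1.01 without 3C replicate 2, a library outside that comparison. Sfrp1 in 3C against DMSO was -1.41 and -1.38 without 3C replicate 1 or 2, beside -1.39 with all libraries. Of 41 calls for the 20 members described in full, 21 were lost in at least 1 such fit and none changed direction. The Wnt10a decrease in 5C against DMSO had an adjusted p of 0.178 without DMSO replicate 2, 0.0582 without 3C replicate 2, 0.126 without 5C replicate 1 and 0.132 without 5C replicate 2, and its increase in 3C 0.0661 without DMSO replicate 1 and 0.123 without 3C replicate 2. For Wnt11, 5C against DMSO gave 0.138 without DMSO replicate 2 and 0.208 without 5C replicate 1, and 5C against 3C 0.0619 without 3C replicate 1 and 0.0533 without 5C replicate 1. In contrast, 3C against DMSO passed for Wnt11 without DMSO replicate 2 (-0.75, adjusted p = 0.0224). Wnt9a lost its call in 5C against DMSO without any of the 4 libraries compared (0.0545 to 0.189) and likewise in 5C against 3C (0.0551 to 0.226). Wnt7b in 5C against 3C did the same (0.0522 to 0.181). Wnt4 in 5C against 3C gave 0.0635 without 3C replicate 2 and 0.0542 without 5C replicate 1. Wnt7a in 3C gave 0.0564 without DMSO replicate 1 and 0.0952 without 3C replicate 2, and Wnt2 in 3C 0.0746 without DMSO replicate 2 and 0.106 without 3C replicate 1.

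Among the other roles, Porcn in 3C gave an adjusted p of 0.0801 without 3C replicate 2, and in 5C 0.0563 and 0.0966 without DMSO replicate 1 or 2 and 0.137 without 5C replicate 1. Fzd1 in 5C against 3C gave 0.183 and 0.205 without 3C replicate 1 or 2 and 0.236 without 5C replicate 2. Fzd6 in the same comparison lost its call without any of the 4 libraries (0.0744 to 0.201), and in 5C against DMSO without 5C replicate 1 (0.0702). Fzd7 in 5C against DMSO gave 0.0525 without 5C replicate 1. Fzd2 gave 0.0976 without DMSO replicate 2 and 0.148 without 5C replicate 1 in 5C against DMSO, and 0.0504 without 3C replicate 1 in 5C against 3C. Rspo3 in 5C against 3C gave 0.0829 and 0.0929 without 3C replicate 1 or 2 and 0.0682 without 5C replicate 2. Sfrp1 in 3C against DMSO gave 0.0654 without DMSO replicate 1 and 0.0643 and 0.0687 without 3C replicate 1 or 2. In 5C against 3C the same gene gave 0.0565 and 0.0599 without 3C replicate 1 or 2 and 0.0541 without 5C replicate 2.

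Other genes of the pathway were counted in lists. Of 10 negative regulators and receptor turnover genes tested, 5 rose and none fell in each cocktail against DMSO, and 3 rose and none fell in 5C against 3C. The shares of all genes that passed as higher were 15.6% and 12.7% in 5C and 3C over DMSO, and 7.33% in 5C over 3C. The 3 increases over 3C were those of Kremen1, Apcdd1 and Trabd2b, and none of them passed without 5C replicate 1 (adjusted p = 0.127, 0.164 and 0.0871), without 5C replicate 2 or without 3C replicate 2. Of the increases over DMSO, 3 were left in 5C without either 5C library, and 2 in 3C without DMSO replicate 2 or 3C replicate 1. At an unadjusted p under 0.05, edgeR placed none lower in 5C against DMSO, Kremen1 in 3C against DMSO and Rnf43 in 5C against 3C, and DESeq2 called only Kremen1 lower, in 3C; both genes are named for this count. The median log2 fold changes of the list were 0.92, 0.81 and 0.36 in 5C and 3C over DMSO and in 5C over 3C. Nkd1, Nkd2, Apcdd1 and Axin2 rose in both cocktails. Axin2, a scaffold that beta-catenin itself induces in many cells, measured 6.33 and 3.26 CPM in DMSO, 13.4 and 8.82 in 3C, and 12.6 and 9.04 in 5C. It rose by 1.18 (SE 0.34, adjusted p = 0.0439) in 3C and 1.19 (SE 0.34, adjusted p = 0.0377) in 5C. Nkd1, another feedback inhibitor, rose from 9.13 and 5.9 CPM in DMSO to 23.8 and 19.9 in 3C and 24.7 and 30.5 in 5C, by 1.51 (SE 0.21, adjusted p = 0.00107) and 1.90 (SE 0.21, adjusted p = 0.00025). Apcdd1, a membrane inhibitor of WNT signals, measured 3.71 and 2.85 CPM in DMSO, 7.08 and 4.49 in 3C, and 11.4 and 10.1 in 5C. The Axin2 call in 5C was lost without DMSO replicate 2 (0.0857), 5C replicate 1 (0.182) or 5C replicate 2 (0.0668), and in 3C without DMSO replicate 2 (0.0957), 3C replicate 1 (0.214), 5C replicate 1 (0.0618) or 5C replicate 2 (0.0659). In 3C, those of Apcdd1 (adjusted p = 0.0488) and Nkd2 (0.018) were lost without each of 5 libraries and of 3 libraries, with values of 0.0605 to 0.37 and 0.0527 to 0.0939; Apcdd1 kept its call without 3C replicate 2, and Nkd2 was lost without DMSO replicate 2 or either 3C library. The Nkd1 calls held.

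Of 11 general beta-catenin targets, 2 rose and 2 fell in 5C, and 3 rose and 1 fell in 3C against DMSO. Those that rose were Axin2 and Nkd1 in both and Rnf43 in 3C, which were already counted among the negative regulators above. Over all genes tested 15.6% passed as higher and 13.1% as lower in 5C, and 12.7% and 11.8% in 3C, and nothing is read from so few calls. Those that fell in 5C were Ccnd1, a cyclin of the cell cycle, and Myc, a growth factor-induced transcription factor, by -0.79 (SE 0.14, adjusted p = 0.00374) and -0.86 (SE 0.08, adjusted p = 3.87e-05). Of 9 pericentral targets tested, 5 rose and 1 fell in 5C, and 3 rose and 2 fell in 3C. Glul, the glutamine synthetase of pericentral hepatocytes, fell from 491 and 510 CPM in DMSO to 248 and 248 in 3C and 198 and 213 in 5C (-1.05, SE 0.07, adjusted p = 1.5e-05, and -1.27, SE 0.07, adjusted p = 3.49e-06). Cyp2e1, a pericentral cytochrome, rose from 0.357 and 0.485 CPM to 3.35 and 2.08 in 3C and 6.79 and 12.8 in 5C. Hepatocyte markers rose in both cocktails as well, and 8 of 10 macrophage markers fell in both. The part of these cell types in the increase of Cyp2e1 and in the decrease of Glul was not tested.

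Of 12 genes of the destruction complex and signal transduction, 2 rose and 2 fell in 5C against DMSO, and 1 rose and none fell in 3C, where edgeR placed Csnk1e and Gsk3b lower at an unadjusted p and DESeq2 called none. Over all genes tested, 15.6% rose and 13.1% fell in 5C, near the shares of this list. The gene of beta-catenin, Ctnnb1, measured 719 and 739 CPM in DMSO, 892 and 890 in 3C, and 714 and 708 in 5C, and was higher in 3C by 0.26 (SE 0.07, adjusted p = 0.019; 0.142 and 0.144 without 3C replicate 1 or 2). Of 10 nuclear factors, 4 rose in 5C and 3 in 3C, beside 15.6% and 12.7% of all genes, among them Tcf7l1 in both (0.74, SE 0.11, adjusted p = 0.000933, and 0.51, SE 0.11, adjusted p = 0.00866, the latter 0.0893 without 3C replicate 2). Lgr4, the only R-spondin receptor of 3 with a mean above 1 CPM, measured 30.1 and 29.2 CPM in DMSO, 39.8 and 41 in 3C, and 26.1 and 28.6 in 5C. It rose in 3C by 0.41 (SE 0.09, adjusted p = 0.0109) and was lower in 5C than in 3C (-0.51, SE 0.09, adjusted p = 0.00759). Without 3C replicate 1 or 2 these gave 0.0611 and 0.0918, and 0.0545 and 0.0751.

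Of 15 noncanonical receptors and planar polarity genes, 9 rose in 5C against DMSO, 6 in 3C against DMSO and 5 in 5C against 3C, where 15.6%, 12.7% and 7.33% of all genes tested rose. Without 3C replicate 2 the 5 became 1, since Ryk (0.195), Gpc3 (0.155), Prickle1 (0.0511) and Prickle2 (0.0573) missed the threshold, and 3 were left without 3C replicate 1 or 5C replicate 2. In 5C against DMSO, Ryk, a WNT coreceptor, and Vangl2, a core polarity protein, each lost the call without 5 of the 6 libraries (0.0791 to 0.105 and 0.0529 to 0.184). None fell in any of them by edgeR, at an adjusted or an unadjusted p, nor by DESeq2. Ptk7, a receptor of planar polarity, measured 45.4 and 38 CPM in DMSO, 63.6 and 64.2 in 3C, and 137 and 117 in 5C, and rose by 1.63 (SE 0.10, adjusted p = 4.17e-06) in 5C. Ror1, a receptor of Wnt5a, measured 14.1 and 11.7 CPM, 21.8 and 25.9, and 28.4 and 36.9, an increase of 1.36 (SE 0.16, adjusted p = 0.000254) in 5C. Gpc3, a proteoglycan of the cell surface that binds WNT ligands, measured 59.9 and 36.9 CPM, 161 and 159, and 310 and 329, an increase of 2.74 (SE 0.22, adjusted p = 0.000332) in 5C over DMSO. Prickle1 and Prickle2, cytoplasmic polarity factors, were higher in 5C than in 3C by 0.81 (SE 0.13, adjusted p = 0.00489) and 0.67 (SE 0.11, adjusted p = 0.00539). Wnt5a, Ptk7, Ror1, Gpc3, Prickle1 and Prickle2 were highest in the 5C libraries, as were the mesothelial markers, though Ror1 did not pass in 5C against 3C (adjusted p = 0.0753). Celsr1, Gpc4 and Vangl2, which also rose in 5C over DMSO, gave -0.02, -0.08 and 0.10 in 5C against 3C and did not pass. The part of mesothelial cells in these levels was not tested.

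**Figure D5:**
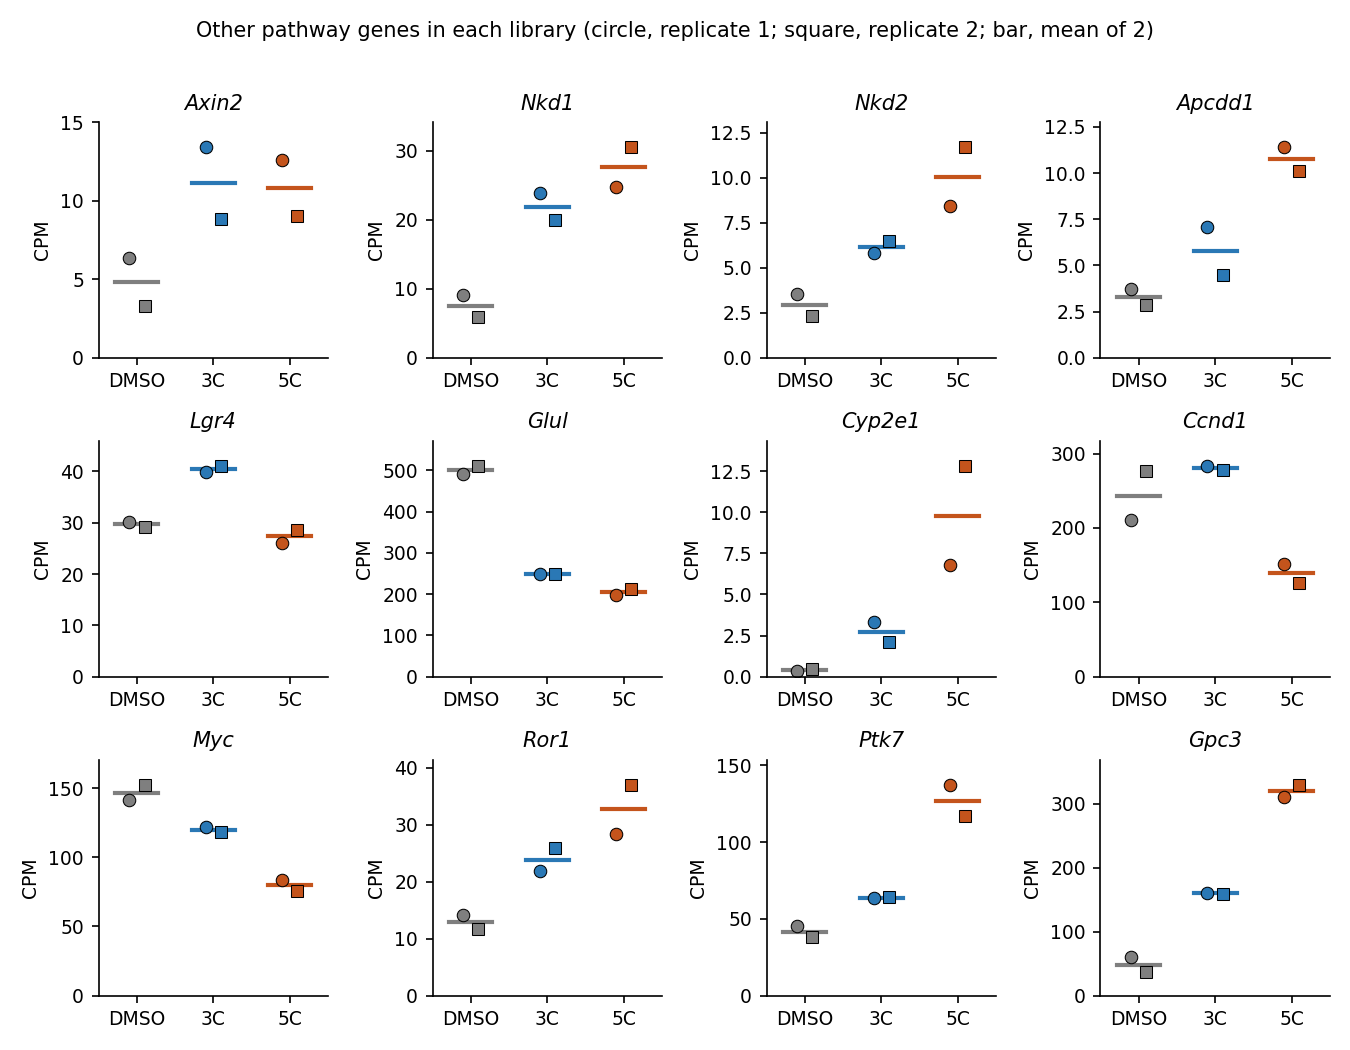
CPM of 12 genes from the pathway lists in each library of DMSO, 3C and 5C, on linear axes that start at 0; circles are replicate 1, squares replicate 2, and bars the mean of 2. The feedback genes Axin2, Nkd1, Nkd2 and Apcdd1 are higher in both cocktails than in DMSO, Glul is lower in both, Lgr4 is highest in 3C at 39.8 and 41, and Ptk7 and Gpc3 are highest in 5C.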

How the data were processed

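RNA-seq libraries of cultured dHeps (DMSO, 3C and 5C, 2 each, day 16) were analysed from 2 tables that the authors deposited. The count table holds estimated counts per gene, which the authors made from paired-end reads mapped to GRCm39 and did not normalize; its values are whole numbers, so rounding changed nothing. Per the labels, the processing named featureCounts, Subread and DESeq2; the aligner, annotation release and strand setting are not given in the sources used here. Among low counts, 4 was more frequent (4816 entries) than 3 (3121) or 5 (2303). The number of units per fragment is unknown, and the floor of 12 units assumes 4. The FPKM table was scaled by the authors to gene length and library total, and served to compare genes and in alternatives. Columns without a sample numbered 0.

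All genes were fitted in edgeR 4.0.16 (R 4.3.3; TMM, filterByExpr, quasi-likelihood F test with robust dispersions, 1 coefficient per group, 3 residual degrees of freedom; common biological coefficient of variation 18.4%). The SE was taken as the fold change divided by the root of its F statistic. Folds against libraries at the floor are lower bounds computed from it, and bounds cover counting error only. Values in every library are given for members past the test in at least 1 comparison with a mean of at least 1 CPM (20 members), and for at most 6 genes of each other list. The members and lists were chosen with earlier results of these data known. Positions, and overlap with exons of the opposite strand, came from GENCODE on GRCm39, which matched all 48 rows. At most 3.56% of the 50-base words of a member's transcript occurred in another gene. Promoter windows came from RefSeq (GRCm38.p6) and were placed on GRCm39 by an exact match found once; Porcn, Sfrp1, Wnt10a, Wnt5a and Wnt7b had no window there. The fits were tested on simulated data. Alternatives used DESeq2 1.42.0, limma 3.58.1 on log2(FPKM + 1) and log2(FPKM + 0.1), RLE and upper-quartile scaling, other filters and thresholds, counts divided by 4, fits to 4 libraries, a replicate block, and each library left out.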

Additional observations from a re-analysis of the deposited data

Results flagged for a closer look

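The 20 members described in full, which had each passed in at least 1 comparison, were searched for opposite changes in the cocktails. For 4 of them, both libraries of 3C lay on one side of the DMSO libraries in CPM and both of 5C on the other. In each, 5C against 3C passed the test. The cocktails shared their DMSO libraries. How often all genes show this order was not counted, so nothing is read from the number of members. For Wnt10a, 3C was higher and 5C lower than DMSO, and the log2 fold change of 5C against 3C was -2.31. For Wnt11 (1.20), Fzd2 (0.75) and Fzd7 (0.57), 3C was lower and 5C higher than DMSO, although none of these 3 passed in 3C against DMSO. In FPKM the 5C and DMSO libraries of Wnt11 overlapped. With 2 libraries a group, no library could be examined as standing apart within its group.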

How the results depend on the processing

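The counts of members past the test (18 in 5C against DMSO, 13 in 3C against DMSO and 14 in 5C against 3C) were 10 to 18, 9 to 15 and 6 to 16 when 1 library was left out. The lowest values came without 5C replicate 1 (10), without 3C replicate 2 (9) and without 3C replicate 1 (6). Limma on log2(FPKM + 1) gave 10 in 5C against DMSO, and each other scaling, filter, test or model kept the counts within 1.5 times of these. A threshold of at least 2-fold with an adjusted p left 8, 8 and 4 members, and with an unadjusted p 8, 8 and 6. Over 19135 genes the differences between replicates correlated by -0.0306, 0.000683 and 0.0161 between groups, which gave no sign of pairing over all genes. These correlations cannot exclude a pairing, since an effect shared by fewer genes would barely move them. With only 2 libraries a group, the replicate numbers are not known to mark a shared animal or day. With a replicate block the counts were 18, 14 and 13, and of the calls on the 20 members described in full it ended that of Fzd1 in 5C against 3C (adjusted p = 0.0582) and added that of Fzd8 in 3C against DMSO (0.0441). Of 60 values for these members none reversed, 20 of 41 calls held under all 16 alternatives to the fit (15 for Sfrp2, which the filter of 10 counts in every library removes), 21 were lost when a library was left out, and 12 under another alternative, of which limma on FPKM accounts for 11 or 10 by pseudocount. A further 5 values passed under some alternative: Fzd8 in 3C against DMSO and in 5C against 3C, Wnt7a and Sfrp2 in 5C against 3C (these 4 with DESeq2 among others), and Wnt11 in 3C against DMSO without DMSO replicate 2. The causes were not tested. The log2 fold changes of Wnt7b over DMSO were 0.80 in 5C and 1.38 in 3C on log2(FPKM + 1), whose pseudocount exceeds its FPKM in DMSO. Levels at or under the floor of 12 units, as for Sfrp2 and Rspo2 in DMSO, were not detectable at this depth rather than absent.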
